A study of Mus musculus with 9 samples.

Results

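The contrast described here set heart muscle cells of newborn mice whose mothers ate a high-fat diet (HFD) against those of newborns whose mothers ate a slight high-fat diet (sHFD). It used 6 of the 9 libraries of the series, chosen by their labels, namely HFD replicates 1 to 3 and sHFD replicates 1 to 3. The other 3 libraries, of a normal diet (ND), entered no test here and are given as levels only. All 9 libraries were RNA-seq of messenger RNA from cardiomyocytes of the heart of wild-type (WT) C57BL/6J mice at postnatal day 0 (P0), and each maternal diet was assigned at random and ran from fertilization to birth. The sources used here give no fat content of the diets, no number of litters or hearts behind a library, no sex of the pups and no way of isolating the cells. Nothing says that the 3 libraries of a diet came from separate litters or animals, so a p-value here speaks of the spread between these samples alone, and that spread may be technical. The series ties its question to a loss of proliferation in these cells.

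Expression was given in TPM, a unit that corrects for transcript length and states each gene as a share of its library. Of 18738 genes in the table, 13606 averaged 1 TPM or more across the 6 libraries and were compared. Differences are HFD minus sHFD in log2(TPM + 1), a scale that understates the change of low genes. A gene was called higher or lower where the moderated test of limma gave a Benjamini-Hochberg adjusted p under 0.05 over all genes compared. Per-library values are given in the order of replicates 1, 2 and 3, and replicates carry no order.

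The heart muscle cell around birth is in transition. Before birth it divides and lives largely on glucose and lactate. Afterwards it leaves the cell cycle, builds its adult contractile and calcium-handling machinery and turns to fatty acids, under nuclear receptors of the PPAR and ERR families and their PGC-1 coactivators. Natriuretic peptide B (Nppb) and the slow myosin heavy chain (Myh7) belong to the fetal ventricle and are known to return in loaded or failing adult hearts.

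TPM keeps no read number, and depth is unknown for every library. Between 16722 and 17105 genes were above 0 in a library of the series, and in these 6 the top 20 genes made up 9.39% to 12.5% of all TPM. Pearson correlations of log2(TPM + 1) across genes were 0.979 to 0.992 within HFD, 0.984 to 0.990 within sHFD and 0.929 to 0.950 between the diets. The first principal component of the 6 libraries held 70.1% of their variance and placed the HFD libraries at 37.2 to 39.7 and the sHFD libraries at -41.6 to -35.4. The cardiomyocyte label was checked against 12 markers, which summed to 26689.5 to 32036 TPM in the HFD libraries and 36730.4 to 45889 TPM in the sHFD libraries. Fibroblast markers, summing to 9578 to 10573 TPM in the HFD libraries and 7936 to 10356 TPM in the sHFD libraries, and markers of endothelium, at 4904 to 5739 TPM in the HFD libraries and 4927 to 5506 TPM in the sHFD libraries, were also abundant, so the material was not muscle alone. In such bulk material, fewer cells of a type and less RNA per cell cannot be told apart.

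The diets differed across much of the transcriptome. Of the 13606 genes, 5607 (41.2%) were called, with 1784 (13.1%) higher and 3823 (28.1%) lower in HFD, and 6993 (51.4%) had libraries that did not overlap between the diets. A called difference of at least 1 on the log2 scale was found in 406 genes (2.98%) that were higher and in 1248 genes (9.17%) that were lower. The median difference of all genes was -0.16, the middle 50% of genes lay between -0.55 and 0.23, and the median SE was 0.19. The excess of lower calls came with that shift: after median-ratio scaling, which moved the median of all genes to -0.00, 3210 genes were higher and 3214 lower, and after quantile normalization, with a median of -0.02, they were 3043 and 3126. These scalings raised the share of calls that were higher from 31.8% to 49.97% and 49.3%. Differences of single genes and lists stand against this shift of -0.16, and counts of list members against the 13.1% higher and 28.1% lower of all genes. Of the 58 gene lists with at least 5 members tested, median-ratio scaling raised the median of all 58, by 0.10 to 0.17, so that medians near 0 depend on the scaling, and quantile normalization moved them by -0.10 to 0.37. Without sHFD replicate 1, the number of higher genes was 1164. Across genes the difference had Spearman correlations of -0.13 with GC content, 0.09 with transcript length and 0.21 with mean TPM; genes are not independent replicates, and these are descriptions.

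**Figure D1:**
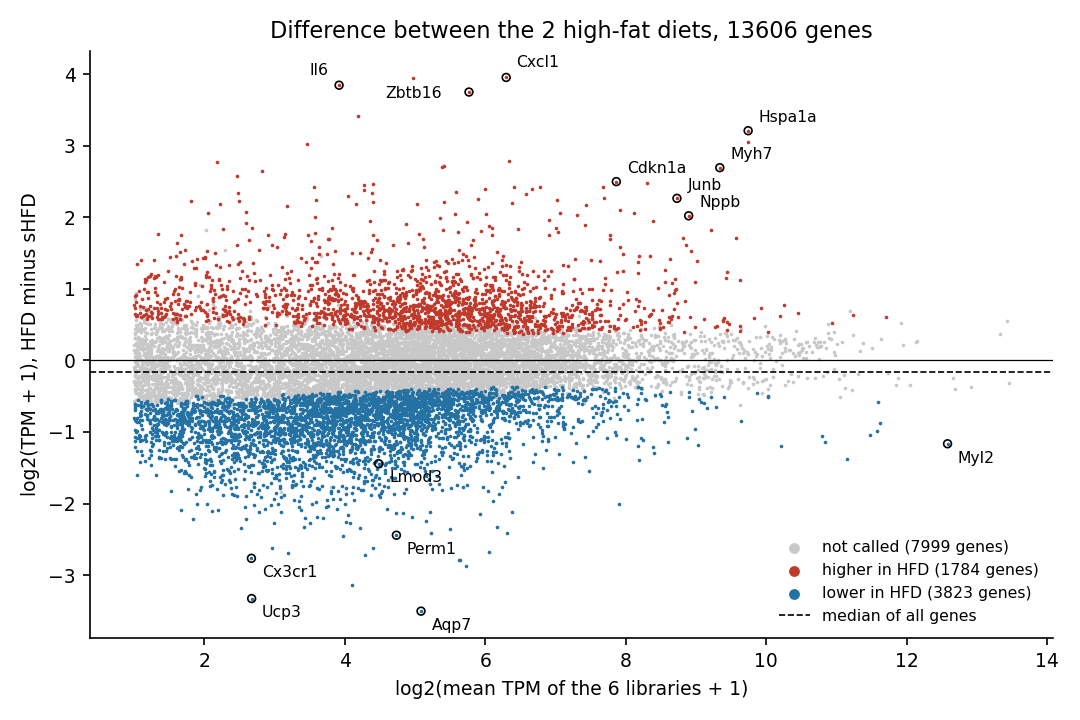
Each point is a gene, with its mean level over the 6 libraries on the horizontal axis, log2(TPM + 1), and its difference, HFD minus sHFD, on the vertical axis; red marks genes called higher, blue genes called lower and grey those not called. The dashed line is the median of all genes, -0.16, and large differences both ways occur at low and high levels, from Il6 and Ucp3 to Hspa1a and Myl2.

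The largest rises, among called genes of at least 5 TPM with libraries that did not overlap, included a chemokine, a cytokine and chaperones. Cxcl1, a chemokine that draws neutrophils, was at 161, 182 and 97.7 TPM in the HFD libraries and 7.13, 7.30 and 10.7 TPM in the sHFD libraries (log2 difference 3.95, SE 0.23, limma adjusted p = 1.18e-06). Il6, the cytokine interleukin 6, was at 23.5, 35.1 and 23.3 TPM in the HFD libraries and 0.78, 1.30 and 0.77 TPM in the sHFD libraries (log2 difference 3.84, SE 0.21, limma adjusted p = 1.1e-06). Zbtb16, a transcription factor induced by glucocorticoids, was at 86.3, 81.8 and 132 TPM in the HFD libraries and 11.5, 5.68 and 3.74 TPM in the sHFD libraries (log2 difference 3.75, SE 0.30, limma adjusted p = 7.75e-06). For all 3, the lowest HFD library stood far above the highest sHFD library. Hspa1a and Hspa1b, inducible chaperones of the Hsp70 family, differed by 3.21 and 3.05, but reads of these near-identical genes could have been divided between them, so both values are uncertain. Further genes among the 20 largest rises were Gadd45b, Dusp2, Rgs16, Cdkn1a, Ppp1r15a, Ciart, Fosl2, Trp53inp1 and Atf3, several of which are described with their groups. Tent5b, a poly(A) polymerase of a small family, was at 22.5, 21.1 and 13.5 TPM in the HFD libraries and 3.13, 2.67 and 2.20 TPM in the sHFD libraries (log2 difference 2.43, SE 0.22, limma adjusted p = 1.49e-05), with ND libraries at 5.08, 1.57 and 4.90 TPM.

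The largest falls, chosen by the same rule as the rises, included genes of glycerol transport and of mitochondrial carriers. Aqp7, a channel for glycerol, was at 3.68, 4.57 and 5.27 TPM in the HFD libraries and 67.05, 51.9 and 65.2 TPM in the sHFD libraries (log2 difference -3.504, SE 0.18, limma adjusted p = 9.43e-07). Ucp3, a mitochondrial carrier of the uncoupling protein family, was at 0.23, 0 and 0.20 TPM in the HFD libraries and 10.6, 13.1 and 8.13 TPM in the sHFD libraries (log2 difference -3.33, SE 0.22, limma adjusted p = 2.53e-06). HFD replicate 2 was listed at 0 for Ucp3, so the difference depends on the added 1 TPM. Slc25a34, a further carrier of the mitochondrial inner membrane, was at 1.33, 1.81 and 5.00 TPM in the HFD libraries and 32.6, 33.8 and 22.02 TPM in the sHFD libraries (log2 difference -3.14, SE 0.31, limma adjusted p = 2.4e-05). Miga2 and Mtfp1, which act in mitochondrial fusion and fission, fell by 2.72 and 2.28 on the log2 scale. Car3, a carbonic anhydrase typical of fat and muscle, was at 0.94, 1.41 and 1.19 TPM in the HFD libraries and 13.3, 10.6 and 13.3 TPM in the sHFD libraries (log2 difference -2.62, SE 0.19, limma adjusted p = 5.02e-06). All 3 HFD libraries lay below every sHFD library for each of these genes, which the rule of choice required. Other members of the 20 largest falls included Btnl9, Gimap4, Gimap8, Cx3cr1, Meox1, Spon2, Tmem51, Rem1, Fam131a, Zfp160, Perm1, Gja5 and Plin5, with differences of -2.88 to -2.25.

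Fetal and stress-associated cardiac genes rose more often than they fell, with 8 of 19 tested members higher, 2 lower and a median of 0.54. Of all genes, 13.1% were higher and 28.1% lower. Nppb, the ventricular natriuretic peptide released on wall stretch, was at 854, 935 and 488 TPM in the HFD libraries and 256, 102 and 221 TPM in the sHFD libraries (log2 difference 2.02, SE 0.31, limma adjusted p = 0.00043). Myh7, the slow myosin motor, was at 1214, 1183 and 948 TPM in the HFD libraries and 258, 118 and 164 TPM in the sHFD libraries (log2 difference 2.69, SE 0.24, limma adjusted p = 1.49e-05). HFD replicate 3 was the lowest of its diet for both, yet it lay above the highest sHFD library. The ND libraries held 79.1, 40.1 and 98.4 TPM of Nppb and 507, 193 and 213 TPM of Myh7, below every HFD library. Ankrd1, a stretch-responsive protein of the Z-disc, was at 1042, 1217 and 1372 TPM in the HFD libraries and 586, 778 and 823 TPM in the sHFD libraries (log2 difference 0.74, SE 0.18, limma adjusted p = 0.00689). Hbegf, a growth factor of the EGF family, was at 26.9, 31.6 and 37.9 TPM in the HFD libraries and 14.2, 12.3 and 12.2 TPM in the sHFD libraries (log2 difference 1.24, SE 0.17, limma adjusted p = 0.000205). Nppa, the atrial natriuretic peptide, was at 16514, 14109 and 8711 TPM in the HFD libraries and 7432, 7477 and 11776 TPM in the sHFD libraries and was not called (log2 difference 0.54, SE 0.29, limma adjusted p = 0.148). Its groups overlapped, since HFD replicate 3 lay below sHFD replicate 3.

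Promoters of both genes that led this group are shown, since they carry short elements known from cardiac promoters. The windows are the 250 bases before the first listed RefSeq start of each gene on GRCm38.p6, Nppb at chr4:147985650-147985899 on the plus strand and Myh7, the first of 2 listed starts, at chr14:54994627-54994876 on the minus strand, each printed 5′ to 3′ in the direction of transcription. Capitals mark every match, on either strand, to the M-CAT element GGAATG, which TEAD factors are known to bind, and to the site GATAA of GATA factors.
Nppb: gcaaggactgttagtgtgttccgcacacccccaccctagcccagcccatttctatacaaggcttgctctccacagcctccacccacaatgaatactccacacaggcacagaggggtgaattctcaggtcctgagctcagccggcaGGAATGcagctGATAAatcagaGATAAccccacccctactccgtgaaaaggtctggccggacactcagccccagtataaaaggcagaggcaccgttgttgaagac
Myh7: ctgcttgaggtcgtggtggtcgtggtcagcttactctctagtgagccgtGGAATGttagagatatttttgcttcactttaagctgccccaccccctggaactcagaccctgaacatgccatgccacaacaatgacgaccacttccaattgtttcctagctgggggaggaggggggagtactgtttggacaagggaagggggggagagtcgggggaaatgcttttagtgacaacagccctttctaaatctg
Nppb held 1 M-CAT match, 105 to 100 bases before the start, and 2 GATA matches, at 94 to 90 and at 83 to 79 bases. Myh7 held 1 M-CAT match, 201 to 196 bases before the start, and no GATA match in this window. The matches did not overlap. M-CAT matches occurred in 10.7% and GATA matches in 14.8% of the 10841 promoters of genes compared, 79.7% of which had one, and each occurred in 6 of 17 promoters of the fetal and stress-associated list (35.3%). The sarcomere and Z-disc list, of which more members fell than rose, held them at similar shares, M-CAT in 10 of 29 (34.5%) and GATA in 9 of 29 (31%), and among the promoters of all genes called higher they were in 9.81% and 12.6%. A match is a run of letters and not a tested binding site.

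**Figure D2:**
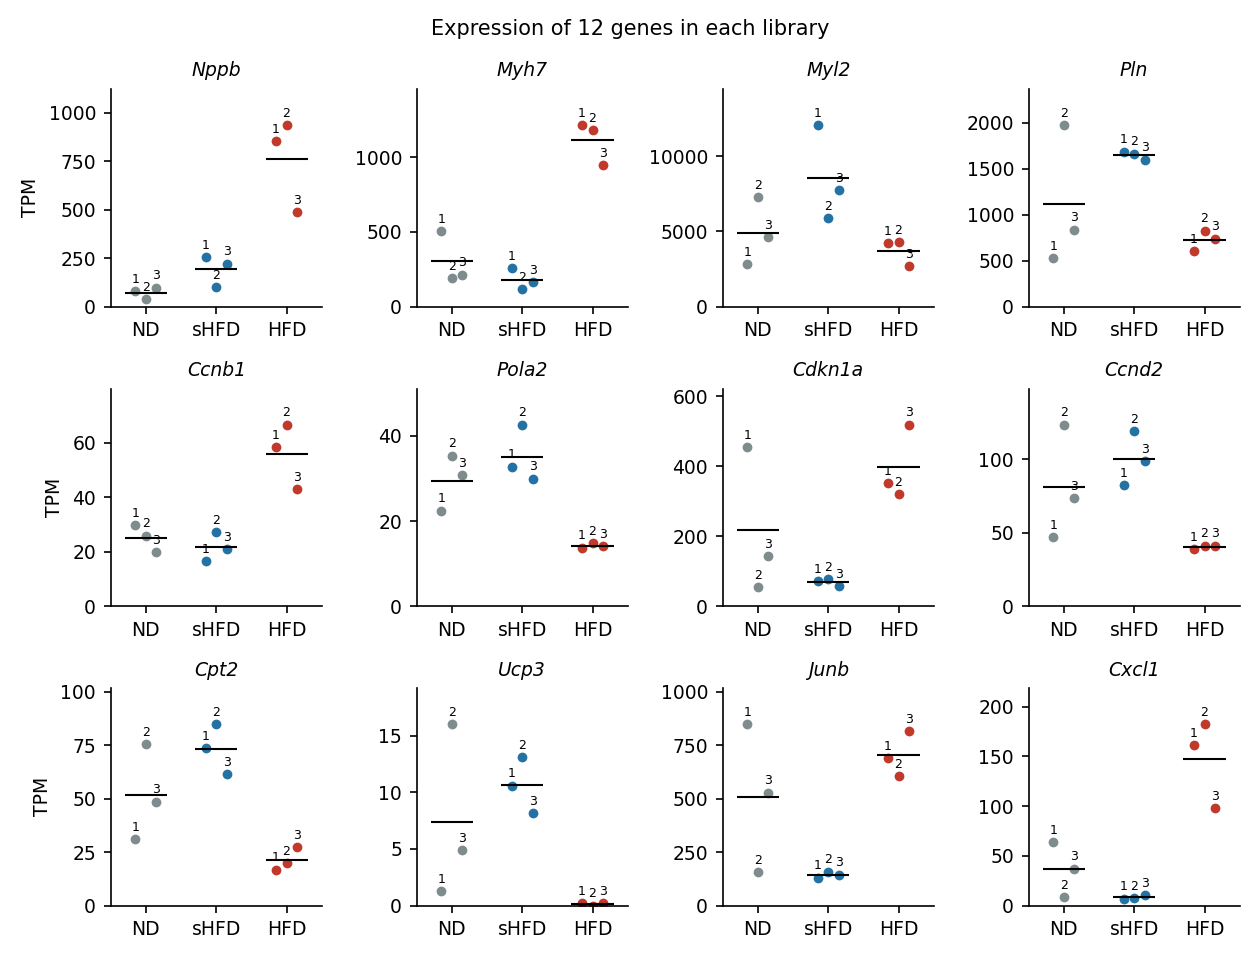
TPM of 12 genes in each library, by maternal diet; points are libraries with their replicate number, black lines are means of 3, and each panel has its own linear axis from 0. In every panel the HFD libraries lie on 1 side of all sHFD libraries, while ND replicate 1 sits near the HFD level in the panels of Pln, Ccnd2, Cdkn1a and Junb and not in that of Nppb.

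Genes of the sarcomere were called about as often as all genes. Of 37 sarcomere and Z-disc genes tested, 12 fell and 4 rose, against 28.1% and 13.1% of all genes, around a median of -0.32. After median-ratio scaling 8 fell and 5 rose with a median of -0.14, the median was -0.21 after quantile normalization and -0.18 without HFD replicate 3 or sHFD replicate 1, 8 fell without HFD replicate 2, and 2 rose without sHFD replicate 3. Myl2, the regulatory light chain of the ventricle, was at 4239.6, 4274 and 2677 TPM in the HFD libraries and 12048, 5879.8 and 7729.7 TPM in the sHFD libraries (log2 difference -1.17, SE 0.28, limma adjusted p = 0.00617). Lmod3, which nucleates thin filaments, was at 9.84, 10.7 and 12.4 TPM in the HFD libraries and 31.8, 35.4 and 27.9 TPM in the sHFD libraries (log2 difference -1.44, SE 0.17, limma adjusted p = 7.56e-05). Neither gene's groups overlapped, though sHFD replicate 1 held far more Myl2 than the other sHFD libraries. The call of Myl2 was lost after median-ratio scaling (-0.99, limma adjusted p = 0.0614). Myl3 (-0.98), Ldb3 (-0.83), Nexn (-0.89) and Smyd1 (-0.76), which encode a light chain, Z-disc proteins and a myosin-folding methyltransferase, were lower as well. The genes that define the cell most strongly were not called: Tnnt2, cardiac troponin T, was at 6241, 5258 and 5299 TPM against 9973, 5903 and 6814 TPM (HFD against sHFD; log2 difference -0.40, limma adjusted p = 0.19), and Myh6, the fast adult myosin, at 6496, 5904 and 7875 TPM against 9589.8, 9631 and 7143 TPM (log2 difference -0.38, limma adjusted p = 0.198). For both, HFD and sHFD libraries overlapped. Actc1, cardiac actin, differed by -0.32 and also missed the threshold.

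Of 34 calcium handling and ion channel genes 13 were lower and 2 higher, against 28.1% and 13.1% of all genes, with a median of -0.38. After median-ratio scaling 9 were lower and 8 higher. Gja5, the connexin of the atria and conduction system, was at 21.8, 24 and 24.6 TPM in the HFD libraries and 88.1, 147 and 164 TPM in the sHFD libraries (log2 difference -2.41, SE 0.21, limma adjusted p = 1.29e-05). Pln, the brake on the calcium pump of the sarcoplasmic reticulum, was at 608, 828 and 739 TPM in the HFD libraries and 1687, 1667 and 1601 TPM in the sHFD libraries (log2 difference -1.198, SE 0.17, limma adjusted p = 0.000211). All HFD values of both genes lay below the lowest sHFD library. Kcne1 (-1.67) and Kcnj11 (-1.45), subunits of potassium channels, and Gja1, the main connexin of the ventricle (-0.84), were lower too. Sln, sarcolipin, an atrial regulator of the same calcium pump, was called higher (log2 difference 0.91, limma adjusted p = 0.0106) although its HFD values of 615, 535 and 374 TPM against 195, 246 and 387 TPM in sHFD overlapped.

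Among 25 cardiac transcription factors 4 rose and 7 fell, shares near the 13.1% and 28.1% of all genes. Their median of -0.16 was also close to that of all genes and turned to 0.01 after median-ratio scaling, when 8 rose and 6 fell. Tbx5, a factor of the atria, left ventricle and conduction system, was at 123, 125 and 125 TPM in the HFD libraries and 34.4, 70.02 and 51.5 TPM in the sHFD libraries (log2 difference 1.300, SE 0.21, limma adjusted p = 0.000554). Irx4, a ventricular factor, was at 15.9, 15 and 14.03 TPM in the HFD libraries and 48.6, 39.3 and 31.5 TPM in the sHFD libraries (log2 difference -1.33, SE 0.18, limma adjusted p = 0.000164). Prdm16, a regulator of the compact myocardium, was at 2.79, 2.83 and 3.16 TPM in the HFD libraries and 9.13, 12.1 and 7.28 TPM in the sHFD libraries (log2 difference -1.396, SE 0.21, limma adjusted p = 0.000298). Tbx5 was thus higher, and Irx4 and Prdm16 lower, in all HFD libraries than in any sHFD library.

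Genes of the cell cycle split by phase. The G2/M and mitosis list was higher, with 25 of 51 tested members up, 1 down and a median of 0.44, while of 45 genes of DNA replication 21 were down, 1 was up and the median was -0.53. The mitotic count was 13 without HFD replicate 2 and 16 without sHFD replicate 3, and the replication count was 13 without sHFD replicate 2 and also after quantile normalization. Ccnb1, cyclin B1 that drives entry into mitosis, was at 58.4, 66.6 and 42.96 TPM in the HFD libraries and 16.6, 27.2 and 21.02 TPM in the sHFD libraries (log2 difference 1.34, SE 0.21, limma adjusted p = 0.000413). Nek2, a kinase of the centrosome, was at 33.97, 35.4 and 26.1 TPM in the HFD libraries and 10.3, 14.3 and 9.69 TPM in the sHFD libraries (log2 difference 1.41, SE 0.19, limma adjusted p = 0.000182). Cdc20, an activator of the ubiquitin ligase that ends metaphase, was at 99.2, 89.9 and 59.9 TPM in the HFD libraries and 42.3, 43.1 and 41.4 TPM in the sHFD libraries (log2 difference 0.92, SE 0.18, limma adjusted p = 0.00192). HFD replicate 3 was the lowest HFD library for all 3 genes, and it still exceeded each sHFD library. Cdc25c (1.197), a phosphatase that switches on the mitotic kinase, Incenp (1.07) of the centromere, Ccnb2 (0.83) and Ube2c (0.77) rose as well.

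On the replication side, Pola2, a subunit of DNA polymerase alpha, was at 13.8, 14.7 and 14.1 TPM in the HFD libraries and 32.8, 42.6 and 29.9 TPM in the sHFD libraries (log2 difference -1.23, SE 0.17, limma adjusted p = 0.000199). Lig1, the ligase that joins Okazaki fragments, was at 21, 20.1 and 17.4 TPM in the HFD libraries and 39.2, 57.3 and 33.9 TPM in the sHFD libraries (log2 difference -1.09, SE 0.20, limma adjusted p = 0.00104). Mcm2, part of the replicative helicase, was at 24.7, 22.9 and 18.1 TPM in the HFD libraries and 41.8, 62.2 and 36.6 TPM in the sHFD libraries (log2 difference -1.04, SE 0.20, limma adjusted p = 0.00184). In each, sHFD replicate 2 was the highest library and the groups did not overlap. Pcna, the sliding clamp, was at 135, 158 and 129 TPM against 136, 193 and 154 TPM (HFD against sHFD), overlapped and was not called (log2 difference -0.18, limma adjusted p = 0.391). Orc6, of the origin recognition complex, was the member that went the other way, at 54.8, 61.5 and 60.05 TPM in the HFD libraries and 24.4, 33.6 and 28.4 TPM in the sHFD libraries (log2 difference 1.02, SE 0.16, limma adjusted p = 0.00044). Mki67, a marker of cycling cells, was at 78.4, 90.1 and 71.2 TPM in the HFD libraries and 47.97, 69.5 and 41.4 TPM in the sHFD libraries and passed the threshold with all libraries (log2 difference 0.61, SE 0.19, limma adjusted p = 0.0218). Its call was lost without HFD replicate 2 (limma adjusted p = 0.0925), without sHFD replicate 1 (0.0617) and without sHFD replicate 3 (0.111).

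Of 10 G1 cyclins, kinases and factors, Myc included, 4 fell, 1 rose and 5 were not called, against 28.1% lower and 13.1% higher of all genes. Their median was -0.26 (-0.09 after median-ratio scaling and -0.12 without sHFD replicate 2). Ccnd1 and Ccnd2, D cyclins that start the cycle, were at 79.7, 85.5 and 78.3 TPM against 199, 271 and 192 TPM and at 38.8, 41.1 and 41.1 TPM against 82.3, 119 and 98.9 TPM, HFD against sHFD. Their differences were -1.41 and -1.27 (limma adjusted p = 6.16e-05 and 0.000112), with no overlap. E2f3, a factor that switches on replication genes, fell by 1.12 on the log2 scale. Myc, a growth-promoting factor that also belongs to the rapidly induced genes, was at 73.9, 75.2 and 100.3 TPM in the HFD libraries and 17.5, 29.9 and 17.3 TPM in the sHFD libraries (log2 difference 1.93, SE 0.21, limma adjusted p = 5.34e-05). Of 25 brakes tested, 16 rose, 3 fell and the median was 0.88. Cdkn1a, the inhibitor p21, was at 351, 321 and 518 TPM in the HFD libraries and 71.1, 76.5 and 57.5 TPM in the sHFD libraries (log2 difference 2.497, SE 0.19, limma adjusted p = 5.49e-06). Gadd45b, a growth-arrest gene, was at 135, 128 and 156 TPM in the HFD libraries and 19.7, 20.7 and 17.9 TPM in the sHFD libraries (log2 difference 2.79, SE 0.15, limma adjusted p = 9.43e-07). Trp53, encoding p53, which is known to switch on Cdkn1a, went the other way at 26.3, 27.7 and 25.5 TPM in the HFD libraries and 74.1, 97.95 and 63.2 TPM in the sHFD libraries (log2 difference -1.51, SE 0.17, limma adjusted p = 6.52e-05). None of these 3 genes had overlapping groups. Gadd45g (2.17), Btg2 (1.42), Tob1 (1.34) and Mdm2 (0.90) rose.

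Among 22 genes of apoptosis and p53 targets, 7 rose and 2 fell, against 13.1% and 28.1% of all genes, with a median of 0.08. After median-ratio scaling 10 rose with a median of 0.25, after quantile normalization 10 rose with a median of 0.19, and without HFD replicate 3 there were 4 that fell, with a median of 0.17. The median was 0.06 without HFD replicate 1 and 0.13 without sHFD replicate 1. Trp53inp1, a p53-induced nuclear protein, was at 91.9, 121 and 217 TPM in the HFD libraries and 22.4, 23.8 and 26.4 TPM in the sHFD libraries (log2 difference 2.42, SE 0.25, limma adjusted p = 3.34e-05). Sesn1, a stress-inducible sestrin, was at 145, 163 and 266 TPM in the HFD libraries and 51.5, 45.1 and 43.1 TPM in the sHFD libraries (log2 difference 1.97, SE 0.21, limma adjusted p = 3.67e-05). Both showed HFD replicate 3 highest and no overlap. Fas, the death receptor, rose by 1.499 and Bcl2l1, the survival factor Bcl-xL, by 1.13.

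Promoters of Ccnb1, at chr13:100786487-100786736 on the minus strand, and Cdc20, at chr4:118437344-118437593 on the minus strand, are shown because mitotic promoters are known for a pairing of CCAAT boxes with the CHR, a cell-cycle element near the start. Capitals mark matches on either strand to CCAAT and to the CHR letters TTTGAA or TTTAAA, and no 2 matches overlap.
Ccnb1: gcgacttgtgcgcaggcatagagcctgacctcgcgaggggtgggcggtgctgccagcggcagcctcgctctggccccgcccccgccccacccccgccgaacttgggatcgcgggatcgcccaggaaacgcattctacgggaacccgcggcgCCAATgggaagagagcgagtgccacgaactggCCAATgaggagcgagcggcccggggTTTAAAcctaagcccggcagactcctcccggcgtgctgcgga
Cdc20: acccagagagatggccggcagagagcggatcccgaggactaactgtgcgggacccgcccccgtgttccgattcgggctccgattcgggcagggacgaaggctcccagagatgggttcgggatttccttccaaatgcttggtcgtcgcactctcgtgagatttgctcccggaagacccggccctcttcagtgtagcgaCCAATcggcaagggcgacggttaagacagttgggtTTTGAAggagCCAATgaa
Each window held 2 CCAAT boxes and 1 CHR, at 42 to 37 bases before the start in Ccnb1 and at 18 to 13 bases in Cdc20. Both elements stood together in 15 of 43 promoters of the mitosis list (34.9%), 4 of 36 of the replication list (11.1%) and 6.97% of all 10841 promoters. CCAAT alone was common in both lists, in 30 of 43 (69.8%) and 22 of 36 (61.1%), against 36.7% of all promoters, and the CHR letters were in 18 of 43 (41.9%) and 7 of 36 (19.4%), against 17.7%.

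**Figure D3:**
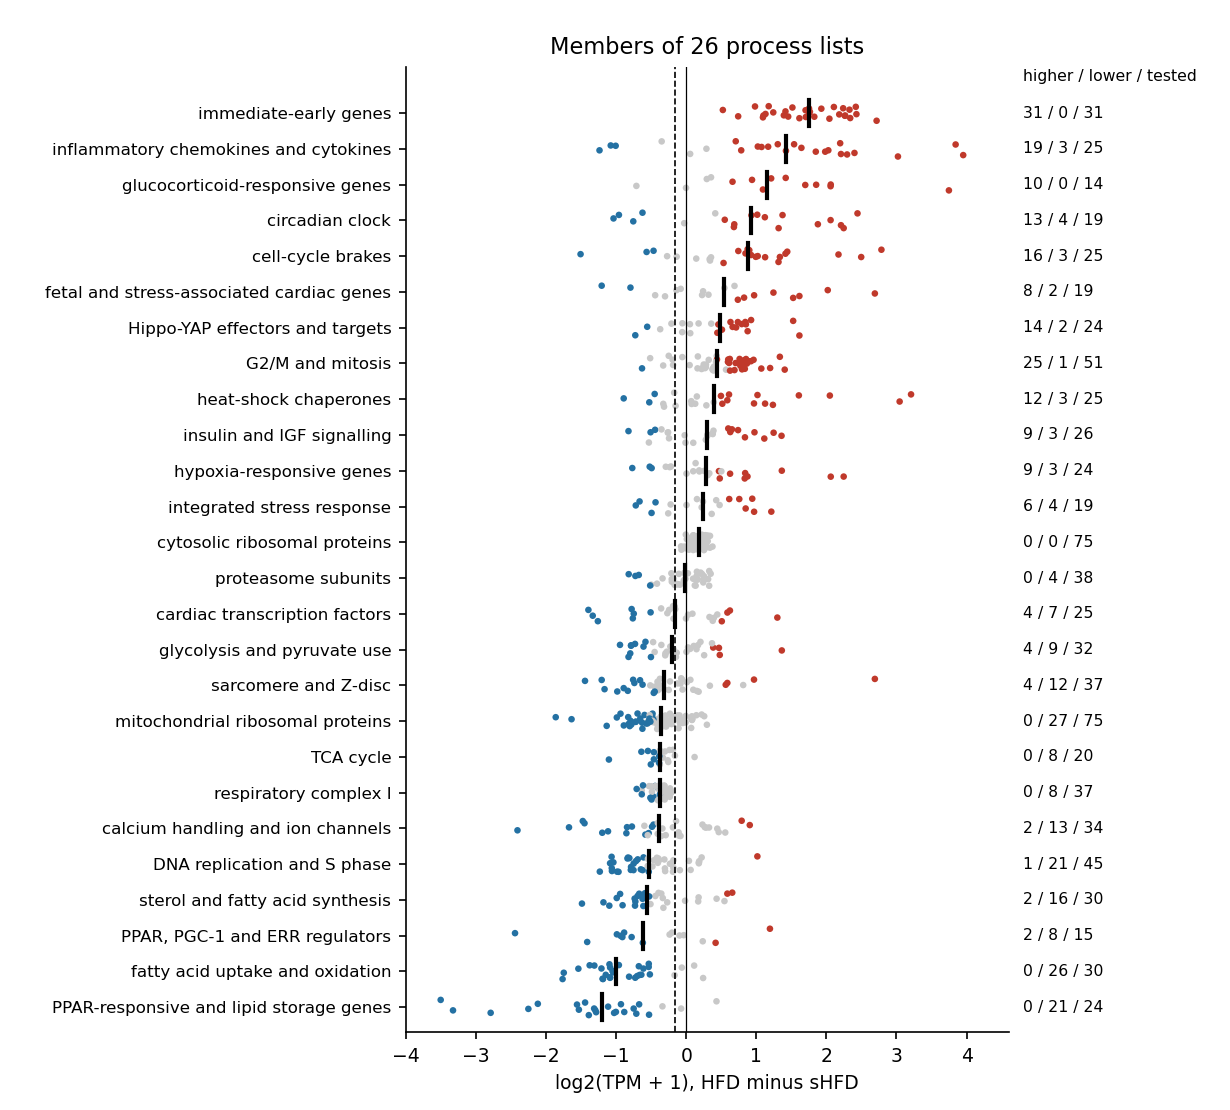
Differences, HFD minus sHFD in log2(TPM + 1), of the tested members of 26 lists; points are genes (red called higher, blue called lower, grey not called), black bars list medians, and the dashed line the median of all genes, -0.16. Immediate-early genes sit at the high end with a median of 1.75 and PPAR-responsive genes at the low end with -1.200, and the numbers at the right are members higher, lower and tested.

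Fatty acid oxidation was lower almost throughout. Of 30 genes that take up, activate and oxidise fatty acids, 26 were called lower, against 28.1% of all genes, the other 4 were not called, and the median was -1.002. Cpt1a and Cpt1b, the liver and muscle forms of the carnitine transferase that admits fatty acids to mitochondria, were at 47.3, 47.9 and 85.8 TPM against 134, 176 and 129.8 TPM and at 124, 127 and 158 TPM against 295, 322 and 252 TPM (log2 differences -1.31 and -1.09, limma adjusted p = 0.000684 and 0.000263). Cpt2, their partner on the inner membrane, was at 16.9, 19.9 and 27.3 TPM in the HFD libraries and 73.5, 84.8 and 61.4 TPM in the sHFD libraries (log2 difference -1.75, SE 0.19, limma adjusted p = 5.31e-05). HFD replicate 3 was the highest HFD library in all 3 genes, and none overlapped with sHFD. Mlycd, which breaks down the malonyl-CoA that blocks this entry, was at 23.3, 25.9 and 33.02 TPM in the HFD libraries and 98.2, 108 and 79.2 TPM in the sHFD libraries (log2 difference -1.76, SE 0.18, limma adjusted p = 2.64e-05). Acacb, which makes malonyl-CoA at mitochondria, was lower as well, at 15.6, 14.6 and 24.5 TPM in the HFD libraries and 55.4, 72.1 and 38.4 TPM in the sHFD libraries (log2 difference -1.54, SE 0.24, limma adjusted p = 0.000425). Acadvl (-1.21) and Hadha (-1.19), enzymes of long-chain oxidation, and Fabp3 (-1.38), the carrier of fatty acids in the cytosol, were below every sHFD library. Lpl, which frees fatty acids from lipoproteins, was at 574, 714 and 777 TPM against 549, 619 and 566 TPM, HFD against sHFD, and was not called (log2 difference 0.24, limma adjusted p = 0.254), though it passed after median-ratio scaling (0.41, limma adjusted p = 0.0414).

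Genes known to respond to PPAR receptors or to store lipid were lower in 21 of 24, with a median of -1.200, and 3 were not called. Aqp7 and Ucp3, given above, were its largest falls. Plin5, which coats lipid droplets beside mitochondria, was at 4.04, 3.78 and 6.14 TPM in the HFD libraries and 28.5, 27.9 and 20.8 TPM in the sHFD libraries (log2 difference -2.25, SE 0.21, limma adjusted p = 1.56e-05). Angptl4, a secreted protein that blocks lipoprotein lipase, was at 24.3, 26.1 and 42.97 TPM in the HFD libraries and 124, 139 and 140.4 TPM in the sHFD libraries (log2 difference -2.12, SE 0.20, limma adjusted p = 1.79e-05). HFD replicate 3 was the highest of its diet for both, and still below the lowest sHFD library. Ucp2 (-1.39) and Dgat2 (-1.44), the latter an enzyme of triglyceride synthesis, fell too. Pdk4, a kinase that holds back glucose oxidation and a classic PPAR target, was at 61.8, 69.8 and 124 TPM against 76.2, 96.9 and 84.7 TPM, HFD against sHFD, and was not called (log2 difference -0.07, limma adjusted p = 0.816).

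The regulators of this programme were lower in part. Of 15 tested, 8 were lower and 2 higher, with a median of -0.62. Perm1, a muscle regulator induced by PGC-1 and ERR, was at 6.33, 7.86 and 7.41 TPM in the HFD libraries and 48.6, 49.5 and 34.05 TPM in the sHFD libraries (log2 difference -2.44, SE 0.19, limma adjusted p = 5.49e-06). Ppara, the receptor PPAR-alpha, was at 4.70, 4.20 and 4.63 TPM in the HFD libraries and 9.76, 9.66 and 9.18 TPM in the sHFD libraries (log2 difference -0.94, SE 0.17, limma adjusted p = 0.00122). Esrra, the receptor ERR-alpha, was at 51.1, 42.7 and 45.1 TPM in the HFD libraries and 97.2, 86.5 and 76.05 TPM in the sHFD libraries (log2 difference -0.89, SE 0.15, limma adjusted p = 0.000769). No HFD library reached the lowest sHFD library for any of them. Nrip1, a corepressor of these receptors, was higher, at 26.8, 35.3 and 51.5 TPM in the HFD libraries and 14.1, 16.9 and 15.4 TPM in the sHFD libraries (log2 difference 1.19, SE 0.21, limma adjusted p = 0.00101). Ppargc1a, encoding PGC-1-alpha, was at 28.99, 33.5 and 39.02 TPM against 27.4, 34.6 and 24.01 TPM, HFD against sHFD, and was not called (log2 difference 0.24, limma adjusted p = 0.311). It passed as higher after median-ratio scaling (0.40, limma adjusted p = 0.0294) and quantile normalization (0.36, 0.0445). Perfect full-length matches to the PPAR element (AGGNCA again after 1 base) or the ERR element TCAAGGTCA were in none of the 24 promoters of the oxidation list and the 17 of the PPAR-responsive list, and in 0.194% and 0.240% of all promoters. This says only that those letters are not in these 250 bases.

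Mitochondrial genes outside fat oxidation moved less. Of 75 mitochondrial ribosomal proteins, 27 were lower, against 28.1% of all genes, with a median of -0.36. Mrpl36 and Mrpl47, proteins of the large subunit, had the largest falls at -1.86 and -1.64 (limma adjusted p = 9.38e-06 and 2.67e-05). Mrpl36 was at 10.02, 10.5 and 10.2 TPM in the HFD libraries and 41.8, 36.9 and 40.99 TPM in the sHFD libraries. All HFD values of Mrpl36 lay near 1 level, far under those of sHFD. Complex I had 8 of 37 members lower, a smaller share than the 28.1% of all genes. Its median was -0.37, and 0 members were lower after median-ratio scaling. Leaving out sHFD replicate 1 gave 0, HFD replicate 2 gave 3, HFD replicate 3 or sHFD replicate 3 gave 4, and HFD replicate 1 gave 17, and 12 had an unadjusted p under 0.05 with all libraries. The TCA cycle had 8 of 20 lower, against 28.1% of all genes, with a median of -0.37. The number lower was 2 after median-ratio scaling, 13 after quantile normalization, and 3 to 5 when HFD replicate 1 or 2 or sHFD replicate 1 or 3 was left out. Ogdh, the oxoglutarate dehydrogenase of that cycle, was at 152, 154 and 175 TPM in the HFD libraries and 326, 456 and 276 TPM in the sHFD libraries (log2 difference -1.103, SE 0.18, limma adjusted p = 0.000621). Nnt, whose enzyme is known to make NADPH at the inner membrane, was at 89.5, 99.5 and 91.6 TPM in the HFD libraries and 176, 206 and 165 TPM in the sHFD libraries (log2 difference -0.95, SE 0.14, limma adjusted p = 0.000354), above the ND libraries (62.7, 121 and 69.3 TPM) in sHFD. These are transcript levels, and neither a working protein nor its activity was measured here. Oma1 (-1.42), a protease of the inner membrane, and Hibch (-1.32), of valine breakdown, were also lower without overlap. In the other ribosome, 0 of 75 cytosolic ribosomal proteins were called in limma, 0 had an unadjusted p under 0.05, and their median was 0.18. That median was 0.35 after median-ratio scaling and 0.08 after quantile normalization, and ran from -0.01, when sHFD replicate 2 was left out, to 0.33, when HFD replicate 3 was left out. After each of these scalings, and without HFD replicate 1, 1 member was called higher.

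Glucose use was mixed. Of 32 genes of glycolysis and pyruvate use 9 fell and 4 rose, with a median of -0.20, against 28.1% lower, 13.1% higher and a median of -0.16 over all genes. The number that rose was 1 without HFD replicate 2, sHFD replicate 1 or sHFD replicate 3 and 2 without HFD replicate 1 or sHFD replicate 2, and the median was -0.03 after median-ratio scaling, -0.32 without HFD replicate 2 and -0.08 without HFD replicate 3. Slc2a4, the insulin-responsive glucose transporter, was at 36.96, 35.2 and 26.9 TPM in the HFD libraries and 69, 62.2 and 60.8 TPM in the sHFD libraries (log2 difference -0.95, SE 0.16, limma adjusted p = 0.000739). Hk1 (-0.82) and Hk2 (-0.79), hexokinases, Pfkm (-0.80), the muscle phosphofructokinase, and Dlat (-0.73), of the pyruvate dehydrogenase complex, fell without overlap, and Hk2 missed the threshold in the fit of all 9 libraries (limma adjusted p = 0.052). Pfkfb3, which makes an activator of phosphofructokinase, was higher, at 27.97, 29.2 and 42.6 TPM in the HFD libraries and 10.1, 20.3 and 8.49 TPM in the sHFD libraries (log2 difference 1.36, SE 0.27, limma adjusted p = 0.00202). Gapdh, a central enzyme of glycolysis, was at 6301, 5098 and 3423 TPM against 4798, 3321 and 4052 TPM, HFD against sHFD, and was not called (log2 difference 0.26, limma adjusted p = 0.429).

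Sterol and fatty acid synthesis was lower in 16 of 30 genes, higher in 2, with a median of -0.56. The median was -0.32 after quantile normalization, 5 were higher after median-ratio scaling and 4 after quantile normalization, and 0 were higher without HFD replicate 2 or sHFD replicate 3 and 1 without sHFD replicate 1. Dhcr7, the last enzyme of cholesterol synthesis, was at 6.79, 6.09 and 7.29 TPM in the HFD libraries and 19.8, 25.5 and 17.3 TPM in the sHFD libraries (log2 difference -1.49, SE 0.19, limma adjusted p = 0.000112). Mvk, mevalonate kinase, was at 8.45, 8.95 and 8.56 TPM in the HFD libraries and 21.4, 17.9 and 19.8 TPM in the sHFD libraries (log2 difference -1.097, SE 0.16, limma adjusted p = 0.000317). Sqle, squalene epoxidase, fell by 1.18 on the log2 scale. Insig1, which holds back the pathway, was among the genes that rose (log2 difference 0.66, limma adjusted p = 0.0145). Its call was lost without HFD replicate 2 (limma adjusted p = 0.0667) or sHFD replicate 3 (0.0741).

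Immediate-early genes, transcription factors and feedback regulators that cells switch on within minutes of a stimulus, were higher in HFD in 31 of 31, against 13.1% of all genes, with a median of 1.75. Fos, a partner in the AP-1 factor, was at 967, 949.7 and 1583 TPM in the HFD libraries and 304, 368 and 372 TPM in the sHFD libraries (log2 difference 1.71, SE 0.20, limma adjusted p = 8.83e-05). Junb, a further AP-1 partner, was at 689, 604 and 815 TPM in the HFD libraries and 131, 159 and 145 TPM in the sHFD libraries (log2 difference 2.26, SE 0.16, limma adjusted p = 3.74e-06). Atf3, a stress-induced factor, was at 239.9, 219 and 591 TPM in the HFD libraries and 49.02, 55.1 and 72.1 TPM in the sHFD libraries (log2 difference 2.42, SE 0.30, limma adjusted p = 0.000112). HFD replicate 3 was the highest of its diet for all 3, and the lowest HFD library exceeded the highest sHFD library. Egr1 (1.83), Nr4a1 (2.11), Fosl2 (2.43), Dusp2 (2.72), a phosphatase that shuts off MAP kinases, and Ppp1r15a (2.48), which restores protein synthesis after stress, rose too. The ND libraries were spread: Fos stood at 1388, 413 and 1029.9 TPM and Junb at 847, 155 and 527 TPM, so that ND replicate 1 was at the HFD level and ND replicate 2 near the sHFD level. For all 31 called members ND replicate 1 was nearer to the HFD mean than to the sHFD mean, as were 0 in ND replicate 2 and 21 in ND replicate 3. The ND libraries thus spanned the levels of both high-fat diets, and the part of these genes in the other differences was not tested.

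Heat-shock chaperones, which refold damaged proteins, were higher in 12 of 25, lower in 3, with a median of 0.39. Of all genes, 13.1% were higher and 28.1% lower. The number of chaperones higher was 8 to 10 when 1 library was left out, 11 after quantile normalization and 14 after median-ratio scaling. Hspa1a was at 1409.7, 1221 and 1982 TPM in the HFD libraries and 216, 88.2 and 223 TPM in the sHFD libraries (log2 difference 3.21, SE 0.31, limma adjusted p = 2e-05) and at 1633, 22.9 and 244 TPM in the ND libraries. Hsph1, a large chaperone of the same system, was at 50.01, 57.1 and 122 TPM in the HFD libraries and 14.4, 18.1 and 16.5 TPM in the sHFD libraries (log2 difference 2.05, SE 0.27, limma adjusted p = 0.000144). Hspb1, a small chaperone, was at 1049, 934 and 949 TPM in the HFD libraries and 473, 335 and 446 TPM in the sHFD libraries (log2 difference 1.24, SE 0.17, limma adjusted p = 0.000184). The groups of all 3 were apart, and ND replicate 1 held Hspa1a at the HFD level. Dnajb1, a partner of the Hsp70 chaperones, rose by 1.61, and Fkbp4, a cochaperone of steroid receptors, fell by 0.89 on the log2 scale.

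The list of inflammatory chemokines and cytokines was higher in 19 of 25 members and lower in 3, with a median of 1.42. It also held genes that encode neither, such as Bcl3, Icam1, Irf1, Nfkbia, Ptgs2, Sele, Selp and Tnfaip3. Beside Cxcl1 and Il6, Cxcl10, an interferon-induced chemokine, was at 21.4, 21.98 and 12.7 TPM in the HFD libraries and 1.02, 1.95 and 1.21 TPM in the sHFD libraries (log2 difference 3.02, SE 0.24, limma adjusted p = 7.6e-06). Nfkbia, the inhibitor of NF-kappaB and itself a target of it, was at 233, 235 and 288 TPM in the HFD libraries and 68.6, 59.7 and 54.8 TPM in the sHFD libraries (log2 difference 2.03, SE 0.15, limma adjusted p = 5.49e-06). Irf1 (2.197) and Tnf (1.85) rose as well. In ND, Cxcl1 was at 64.1, 8.46 and 37.2 TPM and Il6 at 18.7, 2.16 and 7.47 TPM, again highest in replicate 1. The 3 lower members were Il1b (-1.24), a cytokine of myeloid cells, Cxcl12 (-1.08), a chemokine of stromal cells, and Ccl12 (-1.01). Markers of macrophages and of neutrophils, given further on, were lower in HFD.

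Promoters of the leading genes of these groups are shown, Cxcl1 at chr5:90890995-90891244 and Il6 at chr5:30012864-30013113, both on the plus strand, and Hspa1a at chr17:34972157-34972406 on the minus strand. Capitals mark matches on either strand to the kappaB site (GGG, any 2 bases, then TTTCC) in the first pair, and in Hspa1a to the paired heat-shock units GAANNTTC or TTCNNGAA, known from binding by NF-kappaB and by heat-shock factor.
Cxcl1: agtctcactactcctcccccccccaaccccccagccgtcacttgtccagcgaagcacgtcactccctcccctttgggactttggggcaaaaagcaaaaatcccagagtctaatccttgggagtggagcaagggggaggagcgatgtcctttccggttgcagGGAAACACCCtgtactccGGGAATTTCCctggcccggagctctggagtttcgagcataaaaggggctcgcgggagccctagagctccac
Il6: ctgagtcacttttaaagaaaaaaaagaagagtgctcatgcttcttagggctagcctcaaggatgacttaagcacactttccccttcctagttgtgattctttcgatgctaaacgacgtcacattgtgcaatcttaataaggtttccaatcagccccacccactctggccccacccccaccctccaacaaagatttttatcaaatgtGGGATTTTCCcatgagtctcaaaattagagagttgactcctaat
Hspa1a: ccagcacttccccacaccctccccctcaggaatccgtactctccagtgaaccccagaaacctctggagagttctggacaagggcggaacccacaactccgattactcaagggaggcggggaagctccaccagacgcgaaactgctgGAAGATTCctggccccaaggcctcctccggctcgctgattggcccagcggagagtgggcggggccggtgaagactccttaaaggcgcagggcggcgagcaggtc
Cxcl1 held 2 kappaB matches, at 89 to 80 and 71 to 62 bases before the start, Il6 held 1 at 44 to 35 bases, and Hspa1a held 1 pair of heat-shock units at 104 to 97 bases. The kappaB letters were in 5 of 20 promoters of the inflammatory list (25%), Nfkbia and Tnfaip3 among them, and 1.41% of all promoters. The heat-shock pair was in 7 of 19 promoters of the chaperone list (36.8%) and 10.1% of all.

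**Figure D4:**
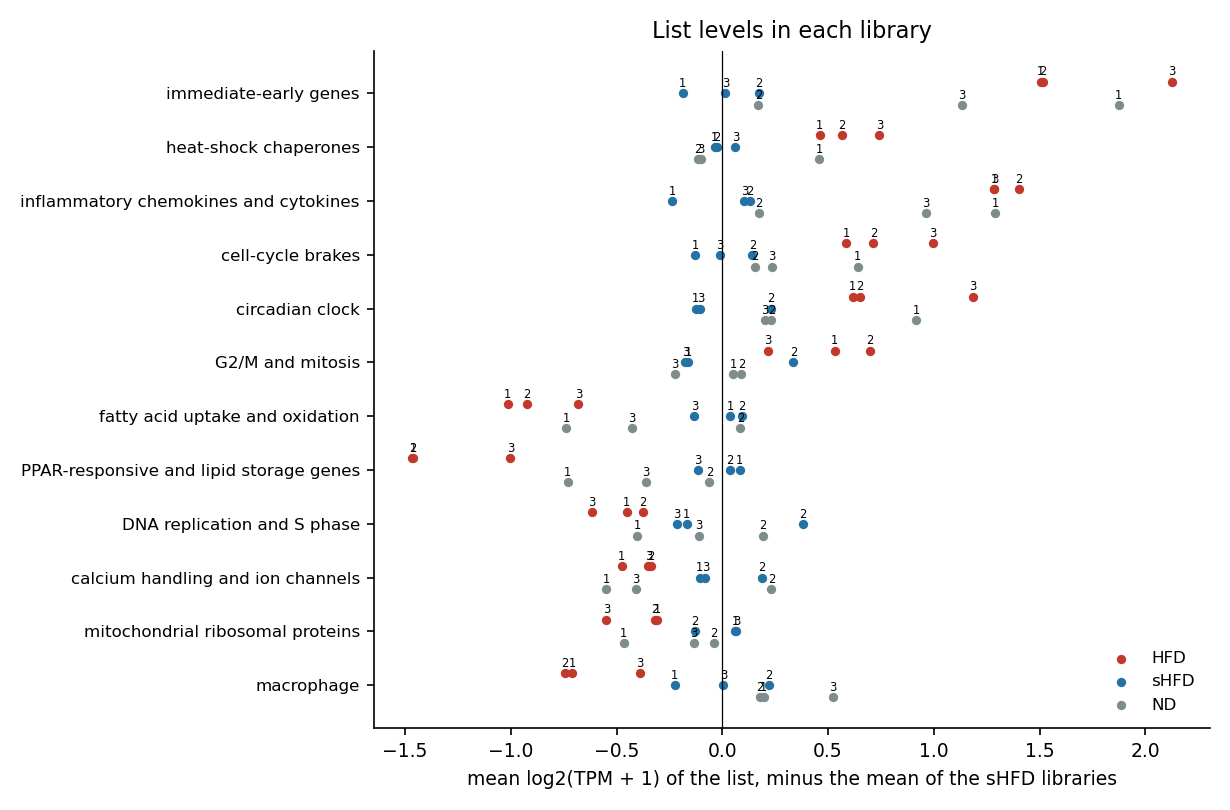
Mean log2(TPM + 1) of 12 lists in each library, minus the mean of the sHFD libraries; points are libraries with their replicate number, coloured by maternal diet. ND replicate 1 lies near the HFD libraries in immediate-early, circadian and fatty acid genes, and ND replicate 2 near the sHFD libraries, while the macrophage list is lowest in HFD and not in ND replicate 1.

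Clock genes differed strongly. Of 19 tested, 13 were higher and 4 lower, with a median of 0.93. Per1 and Per2, repressors of the clock, were at 425, 362 and 554 TPM against 88.7, 147 and 88.4 TPM and at 61.5, 58.9 and 84.8 TPM against 12.02, 22.6 and 9.59 TPM, HFD against sHFD (log2 differences 2.06 and 2.21, limma adjusted p = 3.67e-05 and 7.69e-05). Nr1d1, the repressor Rev-erb-alpha, was at 122, 103 and 168 TPM in the HFD libraries and 44.5, 57.5 and 45.9 TPM in the sHFD libraries (log2 difference 1.37, SE 0.19, limma adjusted p = 0.000182). Ciart, a further repressor, was at 30.02, 26.6 and 38.6 TPM in the HFD libraries and 4.75, 6.86 and 3.66 TPM in the sHFD libraries (log2 difference 2.44, SE 0.22, limma adjusted p = 1.5e-05). Npas2, an activator of the clock, was lower, at 2.92, 3.47 and 5.03 TPM in the HFD libraries and 8.45, 10.9 and 7.11 TPM in the sHFD libraries (log2 difference -1.04, SE 0.22, limma adjusted p = 0.00291). No group overlapped for these genes. The sources used here give no hour of collection. Glucocorticoid-responsive genes were higher in 10 of 14 (median 1.15). Besides Zbtb16, Tsc22d3, an anti-inflammatory leucine zipper protein, was at 272, 329.9 and 405 TPM in the HFD libraries and 106, 91.7 and 107 TPM in the sHFD libraries (log2 difference 1.699, SE 0.17, limma adjusted p = 2.47e-05). Sgk1 (1.42), a kinase, and Fkbp5 (0.94), a cochaperone of the receptor, rose. In ND, Zbtb16 was at 88.5, 5.05 and 22.4 TPM and Per1 at 503, 116 and 164 TPM, with replicate 1 at the HFD level.

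Of 24 hypoxia-responsive genes 9 rose and 3 fell (median 0.28), against 13.1% higher and 28.1% lower of all genes. Ddit4, an inhibitor of mTOR, was at 221, 191 and 229 TPM in the HFD libraries and 65.9, 53.3 and 36.1 TPM in the sHFD libraries (log2 difference 2.06, SE 0.20, limma adjusted p = 2.05e-05). Bnip3, a receptor for the removal of mitochondria, was at 97.2, 135 and 96.3 TPM in the HFD libraries and 58.8, 53.8 and 67.95 TPM in the sHFD libraries (log2 difference 0.84, SE 0.17, limma adjusted p = 0.00207). Both were without overlap, and Bnip3 was above all ND libraries too (45.4, 69.3 and 65.9 TPM). Of 19 genes of the integrated stress response 6 rose and 4 fell (median 0.24), against the same shares of all genes. After quantile normalization 10 rose with a median of 0.57, and without sHFD replicate 2 the median was 0.42. The number that fell was 2 after median-ratio scaling and without HFD replicate 2 or 3 or sHFD replicate 1 or 3. Atf4, its central factor, was at 399, 398 and 415 TPM in the HFD libraries and 159.7, 177 and 185 TPM in the sHFD libraries (log2 difference 1.21, SE 0.14, limma adjusted p = 6.39e-05). Ddit3 (0.94) and the amino acid transporter Slc7a5 (0.85) rose, and Atf5 (-0.72) fell. Of 20 chaperones of the endoplasmic reticulum 2 rose, 3 fell and 15 were not called (median 0.08), which is less than the 13.1% and 28.1% of all genes. After median-ratio scaling 8 rose and 1 fell, the median was -0.01 without sHFD replicate 1 and 0.19 without sHFD replicate 2, and 1 fell without HFD replicate 1 or 2 or sHFD replicate 2 or 3. Hspa5, the main one, was at 950.1, 1050.4 and 1254 TPM in the HFD libraries and 414, 576 and 513 TPM in the sHFD libraries (log2 difference 1.12, SE 0.18, limma adjusted p = 0.000471). Hyou1, its partner, was at 23.96, 22.9 and 26.2 TPM in the HFD libraries and 41.7, 63.1 and 42.4 TPM in the sHFD libraries (log2 difference -0.96, SE 0.18, limma adjusted p = 0.00141). Both had groups that did not overlap, Hspa5 higher and Hyou1 lower in HFD. Dnajb9 (1.15) was the other member that rose.

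Hippo signalling restrains the coactivator YAP, which acts through TEAD factors in dividing heart muscle cells. Of 24 effectors and targets 14 were higher and 2 lower, with a median of 0.48. Among the targets, Ccn1, a matricellular protein, was at 526, 525 and 1077 TPM in the HFD libraries and 209.5, 196 and 250.2 TPM in the sHFD libraries (log2 difference 1.61, SE 0.24, limma adjusted p = 0.000356). Ccn2, connective tissue growth factor, was at 491, 476 and 1262 TPM in the HFD libraries and 224, 222 and 246 TPM in the sHFD libraries (log2 difference 1.53, SE 0.29, limma adjusted p = 0.00165). HFD replicate 3 held far more of both than the other HFD libraries, and all 3 HFD libraries were above every sHFD library. Among the restraining members, Lats1 (0.93) and Lats2 (0.88), the kinases of YAP, Amotl1 (0.79) and Amotl2 (0.71), which hold it in the cytoplasm, and Vgll4 (0.84), which competes with it, were higher. Nf2, an upstream activator of the kinases, was lower, at 51.6, 56.99 and 62.6 TPM in the HFD libraries and 87.5, 111 and 87.7 TPM in the sHFD libraries (log2 difference -0.73, SE 0.15, limma adjusted p = 0.00287). Members named here as restraints of YAP and members named as targets were thus both among the genes that rose, and Nf2 fell. This split rests on the roles named here, and a gene may have both. The promoter of Ccn1, at chr3:145649986-145650235 on the minus strand, is shown with its M-CAT match, on the reverse strand, in capitals.
Ccn1: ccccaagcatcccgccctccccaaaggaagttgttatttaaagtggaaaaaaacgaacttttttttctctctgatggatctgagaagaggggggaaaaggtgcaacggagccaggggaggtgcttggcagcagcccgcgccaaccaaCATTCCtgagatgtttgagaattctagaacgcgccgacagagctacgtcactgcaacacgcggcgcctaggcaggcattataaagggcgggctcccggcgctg
The match lay 103 to 98 bases before the start. GGAATG, on either strand, was in 12 of 19 promoters of the Hippo list (63.2%), against 10.7% of all promoters, which is the element that was found in 6 of 17 promoters of the fetal list.

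Insulin and IGF genes were higher in 9 and lower in 3 of 26 (median 0.30), against 13.1% higher and 28.1% lower of all genes. After median-ratio scaling 14 were higher, with a median of 0.47. After quantile normalization or without HFD replicate 3, 6 were lower, and without HFD replicate 3 the median was 0.19. Irs2, an adaptor of the insulin receptor, was at 50.7, 49.4 and 103 TPM in the HFD libraries and 20.7, 29.6 and 23.2 TPM in the sHFD libraries (log2 difference 1.36, SE 0.25, limma adjusted p = 0.00126). Foxo3 (1.11), a factor that insulin holds back, Igf1r (0.74), the IGF1 receptor, Pik3r1 (0.97), a subunit of PI3 kinase, and Igfbp3 (1.25), an IGF-binding protein, rose. Mtor, the growth kinase, was lower, at 18.2, 17.6 and 22.98 TPM in the HFD libraries and 33.9, 42.6 and 30.4 TPM in the sHFD libraries (log2 difference -0.82, SE 0.18, limma adjusted p = 0.00314). All of these had groups that did not overlap. Of 28 growth-factor, Notch and BMP genes 10 rose and 6 fell (median 0.30), against the same 13.1% and 28.1% of all genes. After median-ratio scaling 15 rose with a median of 0.47, after quantile normalization 3 fell, and without HFD replicate 3 the median was 0.14. Hes1, a Notch target, was at 165, 163 and 283 TPM in the HFD libraries and 47.1, 67.4 and 54.6 TPM in the sHFD libraries (log2 difference 1.798, SE 0.21, limma adjusted p = 8.83e-05). Hey1 (1.84), a second target, Dll4 (1.07), a ligand of Notch in endothelium, and Bmp2 (1.29) rose. Nrg1, the neuregulin that promotes growth of heart muscle, was at 1.77, 2.33 and 2.27 TPM in the HFD libraries and 4.78, 7.33 and 8.54 TPM in the sHFD libraries (log2 difference -1.31, SE 0.22, limma adjusted p = 0.0007). It was lower in all HFD libraries than in any sHFD or ND library (2.58, 6.60 and 5.76 TPM).

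Of 21 receptors of the adrenergic, angiotensin and muscarinic families 5 were higher and 6 lower, against 13.1% and 28.1% of all genes. The share that was lower was thus near that of all genes. The counts were 2 and 3 without HFD replicate 2, and 2 were higher without HFD replicate 3, sHFD replicate 1 or sHFD replicate 3. The median was -0.00, and 0.15 after median-ratio scaling, and differences ran from -1.96 to 2.08. Agtr1a, the angiotensin receptor, was at 2.29, 2.62 and 4.78 TPM in the HFD libraries and 15.5, 16.9 and 12.8 TPM in the sHFD libraries (log2 difference -1.96, SE 0.23, limma adjusted p = 7.56e-05). Adra1b, an alpha-1 adrenergic receptor, was at 5.95, 5.18 and 6.97 TPM in the HFD libraries and 23.8, 27.6 and 17.6 TPM in the sHFD libraries (log2 difference -1.76, SE 0.20, limma adjusted p = 6.2e-05). Both were lower in HFD, without overlap.

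DNA methylation and Polycomb genes went both ways, with 4 of 22 higher and 7 lower, shares near the 13.1% and 28.1% of all genes. Their median of -0.04 became 0.12 after median-ratio scaling and 0.03 after quantile normalization, with 7 and 6 members higher under these scalings. Ezh2, the methyltransferase of Polycomb complex 2, was at 6.30, 6.78 and 9.59 TPM in the HFD libraries and 23.7, 25.6 and 25.7 TPM in the sHFD libraries (log2 difference -1.62, SE 0.18, limma adjusted p = 6.2e-05). Dnmt1, which copies DNA methylation at replication, was at 29.3, 27.7 and 26.1 TPM in the HFD libraries and 52.4, 73.8 and 43.1 TPM in the sHFD libraries (log2 difference -0.97, SE 0.19, limma adjusted p = 0.00177). Kdm6a, a demethylase that removes the Polycomb mark, was at 49.9, 63.3 and 96.6 TPM in the HFD libraries and 18.3, 27.98 and 32.2 TPM in the sHFD libraries (log2 difference 1.37, SE 0.25, limma adjusted p = 0.00106). Ezh2 and Dnmt1 were below, and Kdm6a above, all sHFD libraries in HFD. Dnmt3a (-0.89), which sets new methylation, fell, and Rnf2 (0.93), of Polycomb complex 1, rose. Of 23 imprinted genes 4 rose and 3 fell, against 13.1% and 28.1% of all genes. Their median of -0.01 was 0.16 after median-ratio scaling, when 9 rose. Dlk1 (0.65), Peg10 (1.12), Zim1 (0.87) and Nap1l5 (1.36) were the members that rose. Gatm, which makes the precursor of creatine, was at 3.16, 4.05 and 3.75 TPM in the HFD libraries and 10.1, 14.1 and 11.2 TPM in the sHFD libraries (log2 difference -1.45, SE 0.19, limma adjusted p = 0.000148). In the retinoic acid pathway 4 of 15 rose (1 without HFD replicate 2 or sHFD replicate 3, 2 without sHFD replicate 1) and 4 fell, against 13.1% and 28.1% of all genes. The median was -0.20 (-0.07 after median-ratio scaling), and differences ran from -1.36 to 0.79. Aldh1a2, which makes retinoic acid in the epicardium and other mesoderm, was at 31.6, 30.9 and 33.2 TPM in the HFD libraries and 68.9, 96.1 and 88.6 TPM in the sHFD libraries (log2 difference -1.36, SE 0.16, limma adjusted p = 7.4e-05). All HFD libraries were below all sHFD and ND libraries (38.04, 78.8 and 66.6 TPM).

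Markers of other cells moved with the diets. Macrophage markers were lower in 9 of 18 and higher in 1, against 28.1% and 13.1% of all genes. The number lower was 6 after median-ratio scaling and 6 to 11 when 1 library was left out. All 18 markers summed to 358 to 434 TPM in the HFD libraries and 484 to 599.6 TPM in the sHFD libraries and 621 to 868 TPM in ND. Cx3cr1, a chemokine receptor of tissue macrophages, was at 0.70, 0.27 and 0.91 TPM in the HFD libraries and 8.19, 13.1 and 8.98 TPM in the sHFD libraries (log2 difference -2.77, SE 0.23, limma adjusted p = 1.12e-05). Csf1r, the receptor for their growth factor, was at 16.7, 15.6 and 25.8 TPM in the HFD libraries and 32.4, 56.2 and 38.6 TPM in the sHFD libraries (log2 difference -1.09, SE 0.23, limma adjusted p = 0.00276). Both were below every sHFD and ND library in all HFD libraries. Lymphocyte and antigen presentation markers were lower in 8 of 11, summing to 254 to 287 TPM in the HFD libraries and 334 to 393 TPM in the sHFD libraries, and Ms4a1 was listed at 0 in all HFD libraries. Gimap4, a GTPase of lymphocytes and endothelium, was at 10.5, 13.6 and 10.8 TPM in the HFD libraries and 80.5, 97.4 and 81.4 TPM in the sHFD libraries (log2 difference -2.79, SE 0.16, limma adjusted p = 1.18e-06). Neutrophil and mast cell markers were lower in 7 of 11, summing to 148 to 178 TPM in the HFD libraries and 251 to 337 TPM in the sHFD libraries (4 after quantile normalization). Red cell markers were lower in 6 of 7, summing to 4255 to 7719 TPM in the HFD libraries and 9311 to 12973 TPM in the sHFD libraries, and Hbb-bs, an adult beta-globin with near-identical copies, was at 2368, 1961 and 1359 TPM in the HFD libraries and 4202, 3172 and 4113 TPM in the sHFD libraries (log2 difference -1.04, SE 0.23, limma adjusted p = 0.00335). Among vessels, smooth muscle and pericyte markers were lower in 9 of 12 (5 without HFD replicate 2 or sHFD replicate 2), summing to 1502 to 1735 TPM in the HFD libraries and 1789 to 2593 TPM in the sHFD libraries. Kcnj8, a potassium channel of pericytes, was at 9.77, 8.52 and 10.2 TPM in the HFD libraries and 30.4, 25.8 and 26.3 TPM in the sHFD libraries (log2 difference -1.44, SE 0.16, limma adjusted p = 6.34e-05).

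Endothelial markers went both ways, with 2 of 19 higher and 5 lower (1 and 3 without HFD replicate 2, 6 and 3 after median-ratio scaling). The shares were near the 13.1% and 28.1% of all genes, and the median of 0.01 was -0.09 after quantile normalization. Aplnr, the apelin receptor, was at 75.8, 78.05 and 71.7 TPM in the HFD libraries and 205, 186 and 174 TPM in the sHFD libraries (log2 difference -1.31, SE 0.14, limma adjusted p = 3.92e-05). Sox18, a factor of vessel growth, was at 43.3, 36.5 and 37.7 TPM in the HFD libraries and 118, 136 and 84.4 TPM in the sHFD libraries (log2 difference -1.48, SE 0.18, limma adjusted p = 9.67e-05), and Erg, an endothelial factor, differed by -1.31. The pan-endothelial Pecam1 was at 728, 741 and 859 TPM against 583, 648 and 603 TPM, HFD against sHFD, and was not called (log2 difference 0.34, limma adjusted p = 0.0896), though it passed after median-ratio scaling (0.51, limma adjusted p = 0.0145). Fibroblast markers were higher in 3 of 12 and lower in 0, with a median of 0.17 (1 higher without HFD replicate 2 or sHFD replicate 3). That median was 0.34 after median-ratio scaling and ran from 0.09, when sHFD replicate 1 was left out, to 0.28, when sHFD replicate 2 was. The markers summed to 9578 to 10573 TPM in the HFD libraries and 7936 to 10356 TPM in the sHFD libraries. Fbln1, a matrix protein, rose the most of these (0.71). Col1a1, a fibroblast collagen, was at 1851, 1727 and 1909 TPM against 1359, 1813 and 1299 TPM and was not called (log2 difference 0.31, limma adjusted p = 0.188). Epicardial markers were higher in 3 of 10 and lower in 1, Aldh1a2, with 5 higher after median-ratio scaling and 0 without HFD replicate 2. Ventricular markers fell in 4 of 6, among them Myl2, Myl3 and Irx4, and 1, Myh7, rose. Their sums were 5342 to 7847 TPM in the HFD libraries and 9560.1 to 17566 TPM in the sHFD libraries, and after median-ratio scaling 2 fell and 2 rose.

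Genes foreign to heart muscle were found at levels that differed between libraries. Cartilage markers were higher in 2 of 6 tested and lower in 0, against 13.1% and 28.1% of all genes, with a median of 0.71. They numbered 4 higher after median-ratio scaling, after quantile normalization and without HFD replicate 1, and 1 without HFD replicate 3, when the median was 0.25, or without sHFD replicate 1. Col2a1, the collagen of cartilage, was at 20.9, 21.9 and 54.4 TPM in the HFD libraries and 1.66, 2.56 and 1.44 TPM in the sHFD libraries (log2 difference 3.41, SE 0.31, limma adjusted p = 1.55e-05) and at 84.9, 3.31 and 6.16 TPM in ND. It was higher in all HFD libraries than in any sHFD library, and HFD replicate 3 and ND replicate 1 were highest. Scgb3a2, a secretoglobin of the airway, was at 4.11, 3.13 and 174 TPM in the HFD libraries, was listed at 0 in all sHFD libraries and in ND replicates 2 and 3, and was at 52.2 TPM in ND replicate 1, so no fold is given. Ddx3y, a Y-linked gene, was at 46.1, 61.7 and 44.4 TPM in the HFD libraries and 40.5, 51.04 and 13.6 TPM in the sHFD libraries, was lowest in sHFD replicate 3 and was not called (log2 difference 0.70, limma adjusted p = 0.136). The part of these other tissues and cells in the differences of this contrast was not tested. Leaving out HFD replicate 3 gave 1534 higher and 4258 lower genes.

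**Figure D5:**
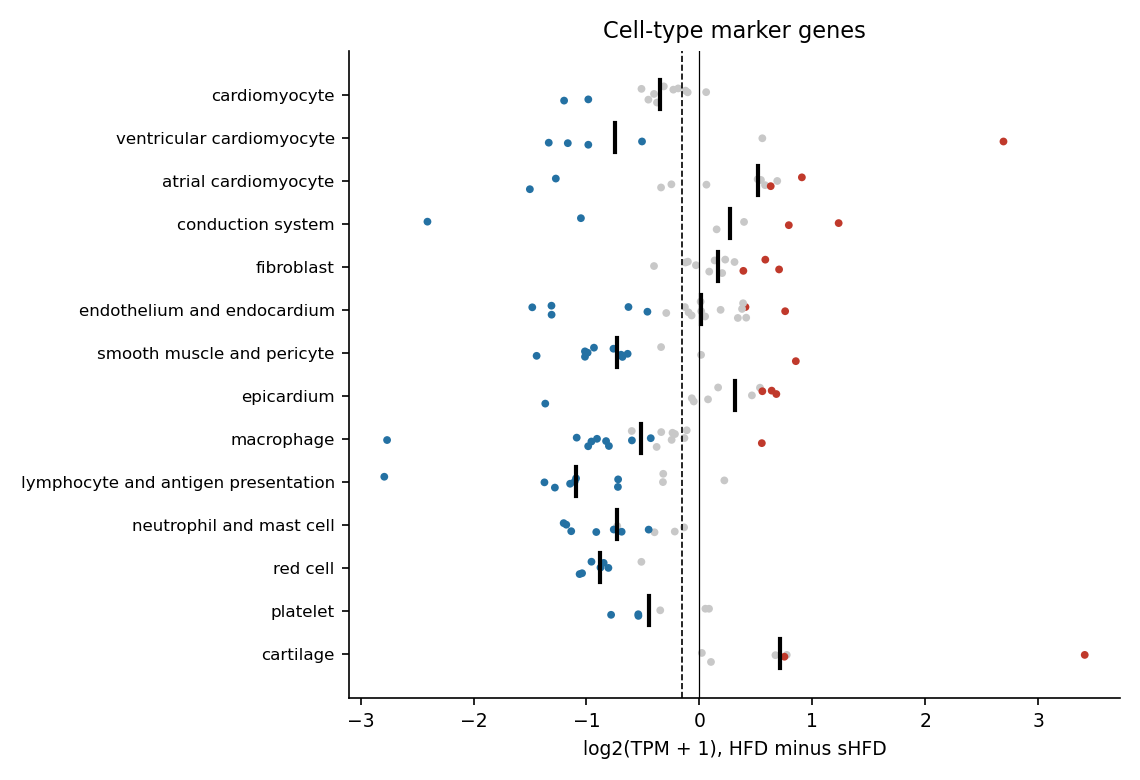
Differences, HFD minus sHFD in log2(TPM + 1), of the tested marker genes of 14 cell types or tissues; points are genes (red called higher, blue called lower, grey not called), black bars list medians, and the dashed line the median of all genes, -0.16. Immune, red cell and pericyte markers lie mainly to the left, with medians of -1.09 for lymphocytes, -0.88 for red cells and -0.73 for smooth muscle and pericytes.

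The ND levels show which of the high-fat diets stood apart. Of the called genes, 2213 (16.3% of all genes compared) were lower in every HFD library than in all sHFD and ND libraries, and 442 (3.25%) were higher. In the same way sHFD was above all other libraries in 454 genes (3.34%) and below them in 285 (2.09%). Nppb, Myh7, Ankrd1, Tbx5, Ccnb1, Nek2, Cxcl1 and Gadd45b were among the genes for which HFD alone was high, and Gja5, Cpt2, Ucp3, Plin5, Trp53, Pola2 and Cx3cr1 among those for which HFD alone was low. Ccnd1, Aqp7, Ppara, Nnt, Myl3 and Gimap4 were highest in sHFD, above all HFD and ND libraries, and Fos, Egr1, Il6, Cxcl10, Tsc22d3 and Hes1 were lowest there. A gene could meet a pattern of both diets, as did Il6, for which the HFD libraries were also above all others. As shares of the genes called in the same direction, HFD was above every other library in 24.8% of higher genes and below every other in 57.9% of lower genes, and sHFD was below every other in 16% of higher genes. Of the 26 called genes of fatty acid oxidation, all lower, HFD was below every other library in 12, which is under the share of all lower genes. Of the 25 mitosis genes that rose HFD was above every other library in 17, which is over the share of all higher genes. Of the 31 immediate-early genes sHFD was below every other library in 10. Outside these 10, HFD was above every other library in 4, and how many of the 10 met both patterns was not counted. Over all 5607 called genes the median gene stood 74.4% of the way from the sHFD mean to the HFD mean in ND replicate 1, 2.55% in ND replicate 2 and 22.03% in ND replicate 3. In ND replicate 1 the figure was 90.6% for genes higher in HFD and 66.4% for genes lower in HFD. The 3 libraries of the normal diet were thus spread between the levels of both high-fat diets.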

How the data were processed

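The authors deposited 1 table of TPM values for 18738 genes, all of the mRNA type, with no mitochondrially encoded gene among them. The submitters' processing notes name RSEM 1.3.1 and the build GRCm38 without a role, and the aligner and annotation were not given in the sources used here. Libraries were made from isolated mRNA, per the labels' protocols. All libraries sum to the same total within rounding, so values are shares, and depth and precision are unknown. Columns named CON, MID and HIGH were read as ND, sHFD and HFD with their replicate number.

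The 6 libraries were compared as log2(TPM + 1), unscaled, over genes averaging 1 TPM or more in them. A linear model of the 2 diets was fitted in limma 3.58.1 under R 4.3.3 with an intensity trend and 4 residual degrees of freedom. P-values were two-sided, adjusted by Benjamini-Hochberg over all 13606 genes, with a threshold of 0.05. With 3 libraries a diet an exact permutation test cannot go below 0.1, and none was used. Lists were described by counts and medians, with no test. The members and lists were chosen with earlier results of these data known.

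Genes named were the 20 largest rises and 20 largest falls among called genes of at least 5 TPM without overlap, the called members and the 4 (markers: 3) of smallest p in each list, a set of fixed genes of the heart, cell cycle, metabolism and other cell types, and, where all named members of a list moved 1 way, the member farthest the other way. This rule gave 620 genes, of which those the comparisons turn on are given; some are not reported here. Alternatives covered the pseudocount, the filter, the libraries fitted, the variance trend, scaling, globin genes, GC content, a replicate block and leaving out each library. Promoters and their starts came from the RefSeq table of GRCm38.p6, and motifs were matched as letters on both strands.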

Additional observations from a re-analysis of the deposited data

How the results depend on the processing

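The counts of 1784 higher and 3823 lower genes stayed within 1.5 times under each alternative but these: 3210 higher after median-ratio scaling, 3043 higher after quantile normalization, and 1164 higher without sHFD replicate 1. Leaving out 1 library gave 1164 to 1912 higher and 2812 to 4258 lower genes. A pseudocount of 0.1 TPM gave 1762 and 3786, no filter 1723 and 3708, a filter of 5 TPM 1568 and 3089, the fit of all 9 libraries 1412 and 3255, no intensity trend 1694 and 3835, removal of globin genes 1765 and 3901, and removal of a GC trend 1847 and 4223. No called gene of the main comparison changed sign under any of these. Pdk4, not called, changed sign after median-ratio scaling (0.10), and leaving out 1 library gave it -0.38 to 0.12. Same-numbered libraries of the diets had correlations of deviations of 0.415, -0.04 and -0.096 across genes. Deviations from the mean of a diet are not independent, so these values cannot decide whether the replicate numbers pair the samples. Pairing is thus unknown. With the replicate block 1944 genes were higher and 3944 lower, and with the block and the GC trend removed 1787 and 4056. Of the genes named in the text, 2 lost their call when 1 library was left out, Mki67 and Insig1, and 176 kept it in all 6 such fits. Limits are the 3 libraries a diet, the unknown depth and litters, the ND libraries' spread, and values that are shares of a total, so that scaling sets the balance of higher and lower calls; the cause of the shift was not tested.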
